A study of Mus musculus with 6 samples.

Results

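The phagocyte NADPH oxidase is described here through 6 of its genes, Cybb, Cyba, Ncf1, Ncf4, Rac1 and Rac2, in mouse macrophages grown from marrow with CSF1 or with CSF2. The members were chosen by symbol: every probe set that the platform annotation gives to one of these genes was taken. Each gene had 1 such probe set, which named no other gene, so the part holds 6 of the 19938 genes tested. RNA of C57BL/6 bone marrow cells, untreated apart from their growth factor, was hybridised to Affymetrix Mouse Gene 1.0 ST arrays, whose probes lie along the whole transcript. The M(CSF1) group holds 3 arrays of cells induced for 7 days with CSF1 (M-CSF), and the M(CSF2) group 3 arrays of cells induced for 7 days with CSF2 (GM-CSF). The cells had been sorted, but no source used here names the marker. The sample titles call the replicates biological, but no source says that they came from separate mice. The p-values therefore cover only the variation among these samples, which may be technical in part.

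The oxidase is the enzyme with which phagocytes make superoxide, the start of the respiratory burst used against engulfed microbes. Its catalytic core lies in the membrane as a pair of proteins, Cybb (NOX2), which carries electrons from NADPH to oxygen, and its partner Cyba, without which Cybb is not stable. In resting cells the core is silent. On stimulation the organiser Ncf1 is phosphorylated and moves to the membrane together with a further cytosolic activator, not analysed here, and with Ncf4, which binds a phosphoinositide of the phagosome membrane. A Rac GTPase loaded with GTP, mainly Rac2 in neutrophils and Rac1 as well as Rac2 in macrophages, completes the active enzyme. Loss of Cybb, Cyba, Ncf1 or Ncf4 causes chronic granulomatous disease in humans.

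Upstream sequence was available for Cybb, Cyba and Ncf1 in the promoter table from RefSeq (build GRCm38.p6), and not for Ncf4, Rac1 and Rac2. It is shown because PU.1, with interferon regulatory factors as partners, is known to drive oxidase genes, and because these 3 members did not move alike in the arrays. Each line gives the 250 bases before the annotated start, 5′ to 3′ on the gene's strand, with motif matches in capitals. Cybb lies on the minus strand and its window is chrX:9469325-9469574, that of Cyba is chr8:122432941-122433190 on the minus strand, and that of Ncf1 is chr5:134229626-134229875 on the minus strand.
Cybb: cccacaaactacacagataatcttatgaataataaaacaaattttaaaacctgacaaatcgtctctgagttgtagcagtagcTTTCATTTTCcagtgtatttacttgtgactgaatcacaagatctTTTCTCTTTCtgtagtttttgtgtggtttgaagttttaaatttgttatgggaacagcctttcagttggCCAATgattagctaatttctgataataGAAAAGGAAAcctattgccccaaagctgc
Cyba: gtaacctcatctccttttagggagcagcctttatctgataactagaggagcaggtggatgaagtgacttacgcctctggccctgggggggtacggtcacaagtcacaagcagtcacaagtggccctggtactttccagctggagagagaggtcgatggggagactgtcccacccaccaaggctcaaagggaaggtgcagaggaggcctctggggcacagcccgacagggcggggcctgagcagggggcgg
Ncf1: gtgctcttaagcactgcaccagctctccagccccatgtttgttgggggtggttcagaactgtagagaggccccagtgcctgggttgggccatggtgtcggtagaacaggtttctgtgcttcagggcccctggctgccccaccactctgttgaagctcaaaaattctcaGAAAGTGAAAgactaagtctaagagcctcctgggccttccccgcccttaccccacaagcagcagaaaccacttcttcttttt

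The motifs searched, on both strands of the table's 300 bases (the 250 printed and the 50 that follow the start), were the PU.1 core GAGGAA, the ETS and IRF composite (GGAA, any 2 bases, then GAAA), the IRF repeat (GAAA, any 2 bases, then GAAA), CCAAT and TATAAA. The IRF repeat was found 3 times in Cybb, beginning 168, 124 and 29 bases before the start, and once in Ncf1, beginning 82 bases before it. It occurs in 3.44% of the 32851 start windows of the table. Cybb also held the composite, at bases 4 to 13 after the start on the opposite strand, where it overlaps the PU.1 core at bases 10 to 15.
Cybb composite site: ctgctgtTTTCATTTCCtcatcag
The composite occurs in 2.72% of all start windows and the PU.1 core alone in 28.3%. CCAAT (37.4% of windows) was found in Cybb, beginning 56 bases before the start, and TATAAA (13.6%) in none of the 3. No searched motif was found in the Cyba window. A match is a run of letters and not a measured binding site, and a window without one says nothing about the factor.

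The arrays formed a simple pair of groups. Arrays of the same group correlated at 0.995 to 0.997 over all probe sets, arrays of different groups at 0.954 to 0.959, and array medians lay between 3.91 and 4.00. All values are deposited signals on the log2 scale, and a difference is M(CSF2) minus M(CSF1). All 7 macrophage markers (Csf1r, Adgre1, Itgam, Cd68, Cd14, Mertk and Fcgr1) lay above the olfactory receptor level on every array. That level, 3.36, is the 95th percentile of 1027 olfactory receptor genes, which serve as an empirical mark of genes that are not expressed. All 6 oxidase genes lay far above it on every array. The macrophage markers did not share a direction. By the limma calls explained below, Csf1r (0.60), Cd68 (0.89) and Cd14 (1.71) were higher in M(CSF2). Adgre1 (-1.18) and Fcgr1 (-1.23) were lower, and Itgam and Mertk were not called.

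The comparison asks how cells induced by CSF2 differ from cells induced by CSF1. The oxidase genes did not move as 1 block: Cyba and Ncf4 were higher in M(CSF2), Rac1 and Rac2 were lower, and Cybb and Ncf1 did not pass the test. The membrane partner Cyba rose 1.85-fold, and Ncf4 rose 1.53-fold. Rac2, the Rac of blood cells, was 2.03-fold lower in M(CSF2), and the ubiquitous Rac1 was 1.49-fold lower. Calls rest on an adjusted p under 0.05 in the limma fit, a linear model with variances moderated across genes and Benjamini-Hochberg adjustment over all 19938 genes. Among all genes 27.5% were called, 11.9% higher and 15.6% lower, so 4 of 6 members called stands beside a high background. Called genes are more frequent among bright genes: with genes below the median signal left out, 52.9% were called, and the same 4 members were. The median difference of the 6 members was -0.01, against 0.04 over all genes. The RNA is from bulk cultures, in which fewer cells of a type and less RNA per cell cannot be told apart.

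**Figure D1:**
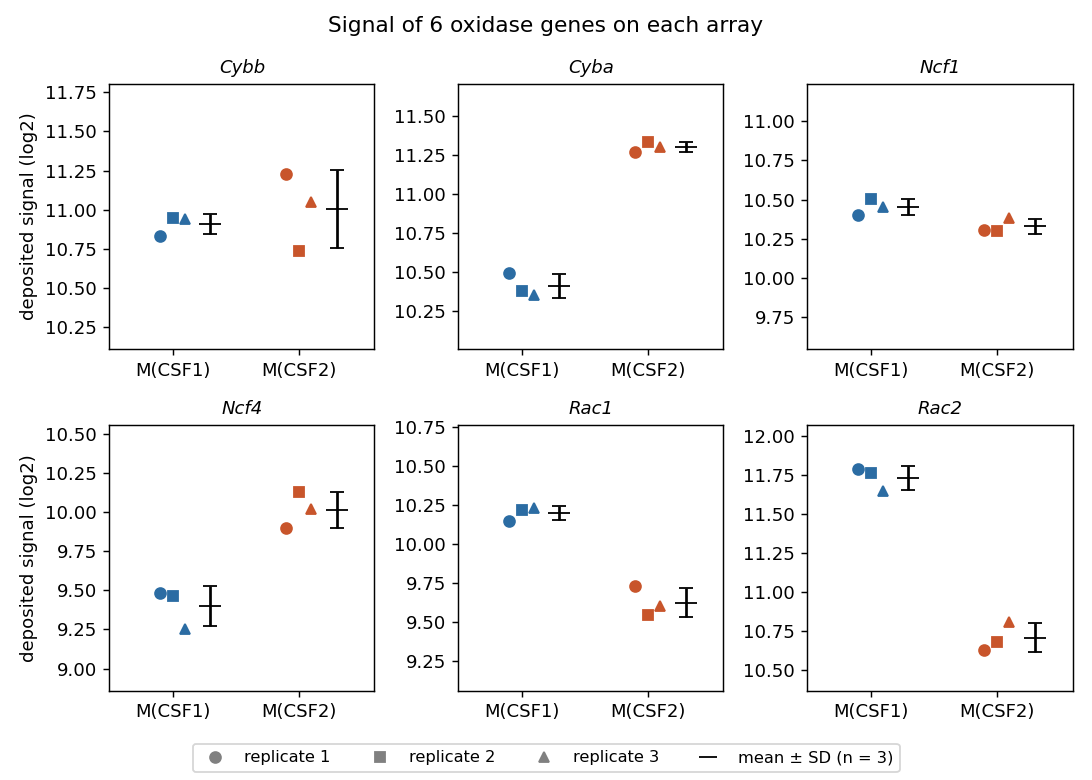
Deposited signal (log2, vertical axis) of the 6 oxidase genes on each of the 3 M(CSF1) and 3 M(CSF2) arrays; symbols mark replicates, bars the mean ± SD, and every panel spans the same range of log2 units. Cyba and Ncf4 sit higher in M(CSF2), Rac1 and Rac2 lower, Ncf1 is apart by a small step, and the Cybb groups overlap.

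In the membrane core, the signal of Cybb, the catalytic subunit, was 10.83, 10.95 and 10.94 on the M(CSF1) arrays and 11.23, 10.74 and 11.05 on the M(CSF2) arrays. The M(CSF2) arrays spread to either side of the M(CSF1) values, and the groups overlap. The difference of 0.10 (SE 0.12, limma adjusted p = 0.622) corresponds to a fold of 1.07, with a 95% interval of 0.876 to 1.31. Within these limits a change in either direction could not be told from the spread. The SD of 0.25 in M(CSF2), against 0.06 in M(CSF1), came from replicates 1 and 2 of M(CSF2). Without replicate 1 the difference was -0.01 (adjusted p = 0.957), and without replicate 2 it was 0.23 (adjusted p = 0.12).

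Cyba, the stabilising partner that also holds the docking site for Ncf1, gave 10.50, 10.38 and 10.36 in M(CSF1) and 11.27, 11.33 and 11.30 in M(CSF2). Every M(CSF2) array lay above every M(CSF1) array, and the spread within each group was small (SD 0.08 and 0.03, n = 3 each). The rise of 0.89 (SE 0.07, limma adjusted p = 5.7e-05) was 1.85-fold, with 95% limits of 1.65 and 2.08. It was larger than the differences of 90.4% of all genes. The core's genes thus gave unequal differences, 0.89 for Cyba and 0.10 for Cybb.

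Of the cytosolic subunits, the organiser Ncf1 gave 10.40, 10.51 and 10.45 in M(CSF1) and 10.31, 10.30 and 10.38 in M(CSF2). All 3 M(CSF2) values were below all 3 M(CSF1) values, but only just. The nearest were 10.40 in M(CSF1) and 10.38 in M(CSF2), closer than the SD of 0.05 in each group. The difference of -0.12 (SE 0.07, limma adjusted p = 0.243) was not called, and its 95% interval in folds ran from 0.823 to 1.02. Groups that do not overlap were seen for 5 of the 6 members and for 38.9% of all genes.

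Ncf4, whose lipid-binding domain anchors the cytosolic complex on phagosomes, gave 9.49, 9.47 and 9.25 in M(CSF1) and 9.90, 10.13 and 10.02 in M(CSF2). The groups are separate, with replicate 3 the lowest of M(CSF1) and replicate 1 the lowest of M(CSF2). The rise of 0.61 (SE 0.10, limma adjusted p = 0.00202) was 1.53-fold, with a 95% interval of 1.31 to 1.78.

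The Rac GTPases moved the other way. Rac2 gave 11.79, 11.76 and 11.65 in M(CSF1) and 10.63, 10.68 and 10.81 in M(CSF2). The groups are far apart against SDs of 0.08 and 0.09 (n = 3 each). Rac2 fell by 1.02 (SE 0.08, limma adjusted p = 5.2e-05), 2.03-fold lower with a 95% interval of 1.79 to 2.31, a difference larger than that of 92.3% of all genes. It was the largest difference among the 6 members.

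Rac1 gave 10.15, 10.22 and 10.23 in M(CSF1) and 9.73, 9.55 and 9.60 in M(CSF2). The groups do not overlap, and the M(CSF2) arrays spread a little more (SD 0.09 against 0.05). Rac1 fell by 0.57 (SE 0.08, limma adjusted p = 0.00085), 1.49-fold lower with a 95% interval of 1.32 to 1.68. Rac1, Rac2 and Rac3 have closely related coding sequences, and how far their probes share signal was not tested.

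Members of 1 role gave unequal differences, and each pair was also read within arrays as the log2 difference between its genes. Only the change of such a difference between groups is read, since the signals of different probes have no common scale. Cybb relative to Cyba changed by -0.79 (SE 0.18), Ncf1 relative to Ncf4 by -0.74 (SE 0.11), and Rac2 relative to Rac1 by -0.45 (SE 0.11). In each of the 3 pairs every M(CSF2) array lay below every M(CSF1) array. How many pairs among all genes separate in this way was not counted, and of single genes 38.9% had groups that do not overlap. The exact permutation test (2-sided) gave p = 0.1 for each pair. Since 0.1 is the smallest p that 3 against 3 arrays allow, none of the 3 could pass, and the test decides nothing.

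**Figure D2:**
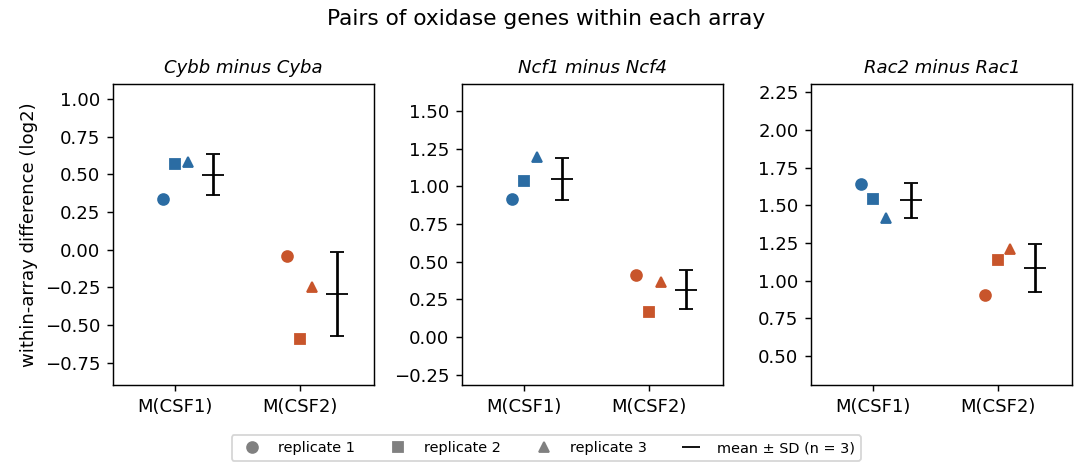
Within-array log2 difference (vertical axis) between the genes of 3 pairs, for 3 M(CSF1) and 3 M(CSF2) arrays; symbols mark replicates and bars the mean ± SD. The groups are separate in each pair, with changes of -0.79, -0.74 and -0.45.

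Calls were the same for all 6 members under each of the 16 alternative settings in which they were tested, and the values moved little. Cyba ranged from 0.85 to 0.93, Ncf4 from 0.54 to 0.67, Rac1 from -0.63 to -0.53 and Rac2 from -1.09 to -0.98. Ncf1 stayed between -0.17 and -0.10 without a call. Cybb ranged from -0.01 to 0.23, also without a call.

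**Figure D3:**
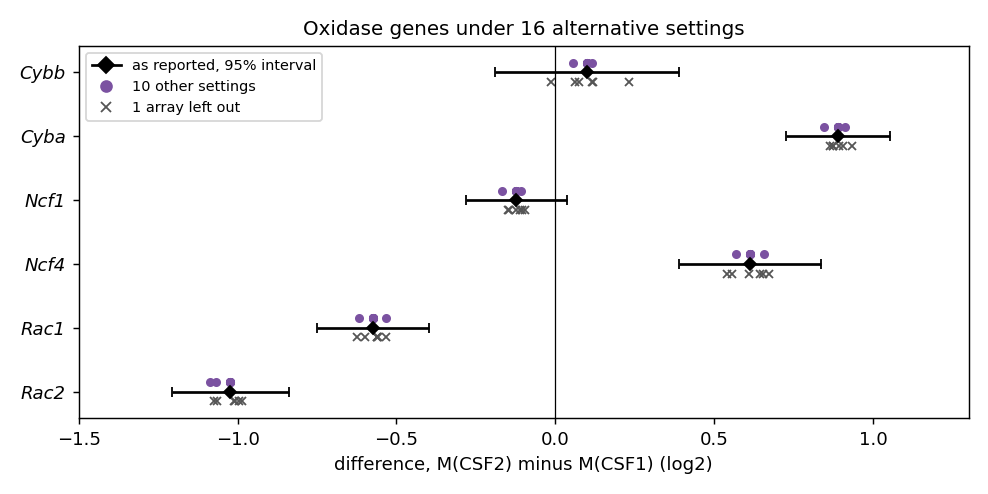
Difference, M(CSF2) minus M(CSF1) (log2, horizontal axis), for each oxidase gene as reported (diamond, with 95% interval), under 10 other settings (circles) and with 1 array left out (crosses). The 4 called genes keep their side of 0 throughout, and only Cybb has a value on the other side, -0.01.

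Around the 6 members, 76 further genes of the oxidase pathway had been listed by role, and 68 of them were measured. Of these, 17 were higher, 21 were lower and 30 were not called, with a median difference of -0.05. Among all genes 27.5% were called. With genes below the median signal left out, 56 of the 68 were tested, and 17 were higher and 18 lower. In that set of 9969 genes 2183 were higher and 3094 lower, and 52.9% were called. The counts of single lists below are to be read beside these shares, and no list was tested as a set. Among partners of the membrane core, Hvcn1, the proton channel that balances the charge the oxidase moves, rose from 8.05 ± 0.30 to 10.35 ± 0.11 (SD, n = 3 arrays each). That is a 4.94-fold difference (95% interval 3.89 to 6.27, limma adjusted p = 1.9e-05). Cybc1, the chaperone that Cybb and Cyba need for assembly, was 0.36 higher (limma adjusted p = 0.0176). Its call was lost with any of 4 arrays left out: it gave 0.38 (adjusted p = 0.0545) without M(CSF1) replicate 2, 0.31 (0.0512) without M(CSF1) replicate 3, 0.35 (0.0578) without M(CSF2) replicate 2 and 0.31 (0.0608) without M(CSF2) replicate 3. Rap1a, a small GTPase found with the core, gave -0.31 and was not called (limma adjusted p = 0.128).

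Relatives and activators of Rac1 and Rac2 were listed too. Of the 3 relatives outside the members, Cdc42 fell by 0.84 (limma adjusted p = 0.00277) and Rhog by 0.46 (0.00615), and Rac3 gave -0.08 (limma adjusted p = 0.783). Of 7 Rac exchange factors, which load Rac with GTP, 5 were lower and 1 higher, where 15.6% and 11.9% of all genes were. Both shares are larger among bright genes: of the 9969 genes kept by the filter at the median signal, 3094 were lower and 2183 higher. Vav1, the exchange factor of blood cells that acts below Fc receptors and integrins, fell by 1.23, 2.34-fold lower (95% interval 2.06 to 2.66). Vav2 fell by 1.14 and Prex1, which responds to G protein subunits and phosphoinositides, by 0.93. Tiam1 was the exception and rose by 1.44, and Dock5 gave -0.02 (limma adjusted p = 0.917). Adjusted p of the named exchange factors that were called was at most 0.000274, for Prex1.

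Genes that restrain Rac were mixed, with 1 of 7 higher, 3 lower and 3 not called. Beside this stand 11.9% higher and 15.6% lower among all genes. Arhgdib, the inhibitor that keeps Rac in the cytosol of leukocytes, fell by 0.63, and Racgap1, whose product also acts in cell division, by 2.27. Arhgap15, a Rac GTPase-activating gene, lay at the olfactory receptor level on all M(CSF2) arrays. It was at least 1.39-fold lower, a bound from its M(CSF1) mean of 3.84 to that level. The bound leaves out the spread of the M(CSF1) arrays (SD 0.22, n = 3). Chn2 was called higher at dim signal, but its M(CSF1) mean of 3.31 lies below that level and its M(CSF2) mean of 3.72 close above it, so the size of its rise is not settled.

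The kinases that act on the cytosolic subunits gave 2 higher and 4 lower of 8, where 11.9% and 15.6% of all genes were. Prkcb, the protein kinase C isoform that phosphorylates Ncf1 in phagocytes, fell by 2.19 from 10.20 ± 0.06 to 8.01 ± 0.15 (SD, n = 3 arrays each), 4.56-fold lower (limma adjusted p = 2.8e-06). Pak2 fell by 0.66 (limma adjusted p = 0.00245) and Prkce rose by 1.04 (0.000694). Mapk14 (-0.35, limma adjusted p = 0.0182), Akt1 (-0.23, 0.0447) and Prkcd (0.27, 0.0480) were called as fitted. With 1 array left out, Mapk14 stayed called in 2 of 6 fits, and Akt1 and Prkcd in 1 of 6 each. Akt1 was called only without M(CSF1) replicate 3. In its other fits it gave -0.20 (adjusted p = 0.11) without M(CSF1) replicate 1, -0.21 (0.126) without M(CSF1) replicate 2, and -0.21 (0.109), -0.24 (0.0586) and -0.22 (0.0963) without M(CSF2) replicates 1, 2 and 3. Mapk14 was not called without M(CSF1) replicate 1 (-0.32, adjusted p = 0.0685) or replicate 2 (-0.31, 0.0786), nor without M(CSF2) replicate 1 (-0.31, 0.0703) or replicate 2 (-0.33, 0.0616). Prkcd was not called without M(CSF1) replicate 1 (0.32, adjusted p = 0.0540), replicate 2 (0.28, 0.128) or replicate 3 (0.23, 0.115), nor without M(CSF2) replicate 1 (0.25, 0.135) or replicate 3 (0.23, 0.137). Phosphoinositide kinases make the lipids that Ncf4 and Ncf1 bind or that lead to Rac loading. Of 4 genes for such kinases or their subunits, Pik3cg fell by 1.78, 3.43-fold lower (limma adjusted p = 2.5e-05). The other 3, among them Pik3c3, which makes the lipid bound by Ncf4, gave -0.21 to -0.11 and were not called. Pla2g4a, which releases the arachidonate that can activate the oxidase, gave 0.21 and was not called (limma adjusted p = 0.210).

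Other NADPH oxidases and their partners were near the olfactory receptor level. Of 9 genes, 1 (Noxo1) lay above that level on all arrays and 6 lay at or below it on all arrays. Nox1, the oxidase of colon epithelium, was lower in M(CSF2), where all 3 arrays lay at that level. From its M(CSF1) mean of 4.47 it was at least 2.16-fold lower (limma adjusted p = 0.000519). This bound leaves out the spread of the M(CSF1) arrays (SD 0.38, n = 3).

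**Figure D4:**
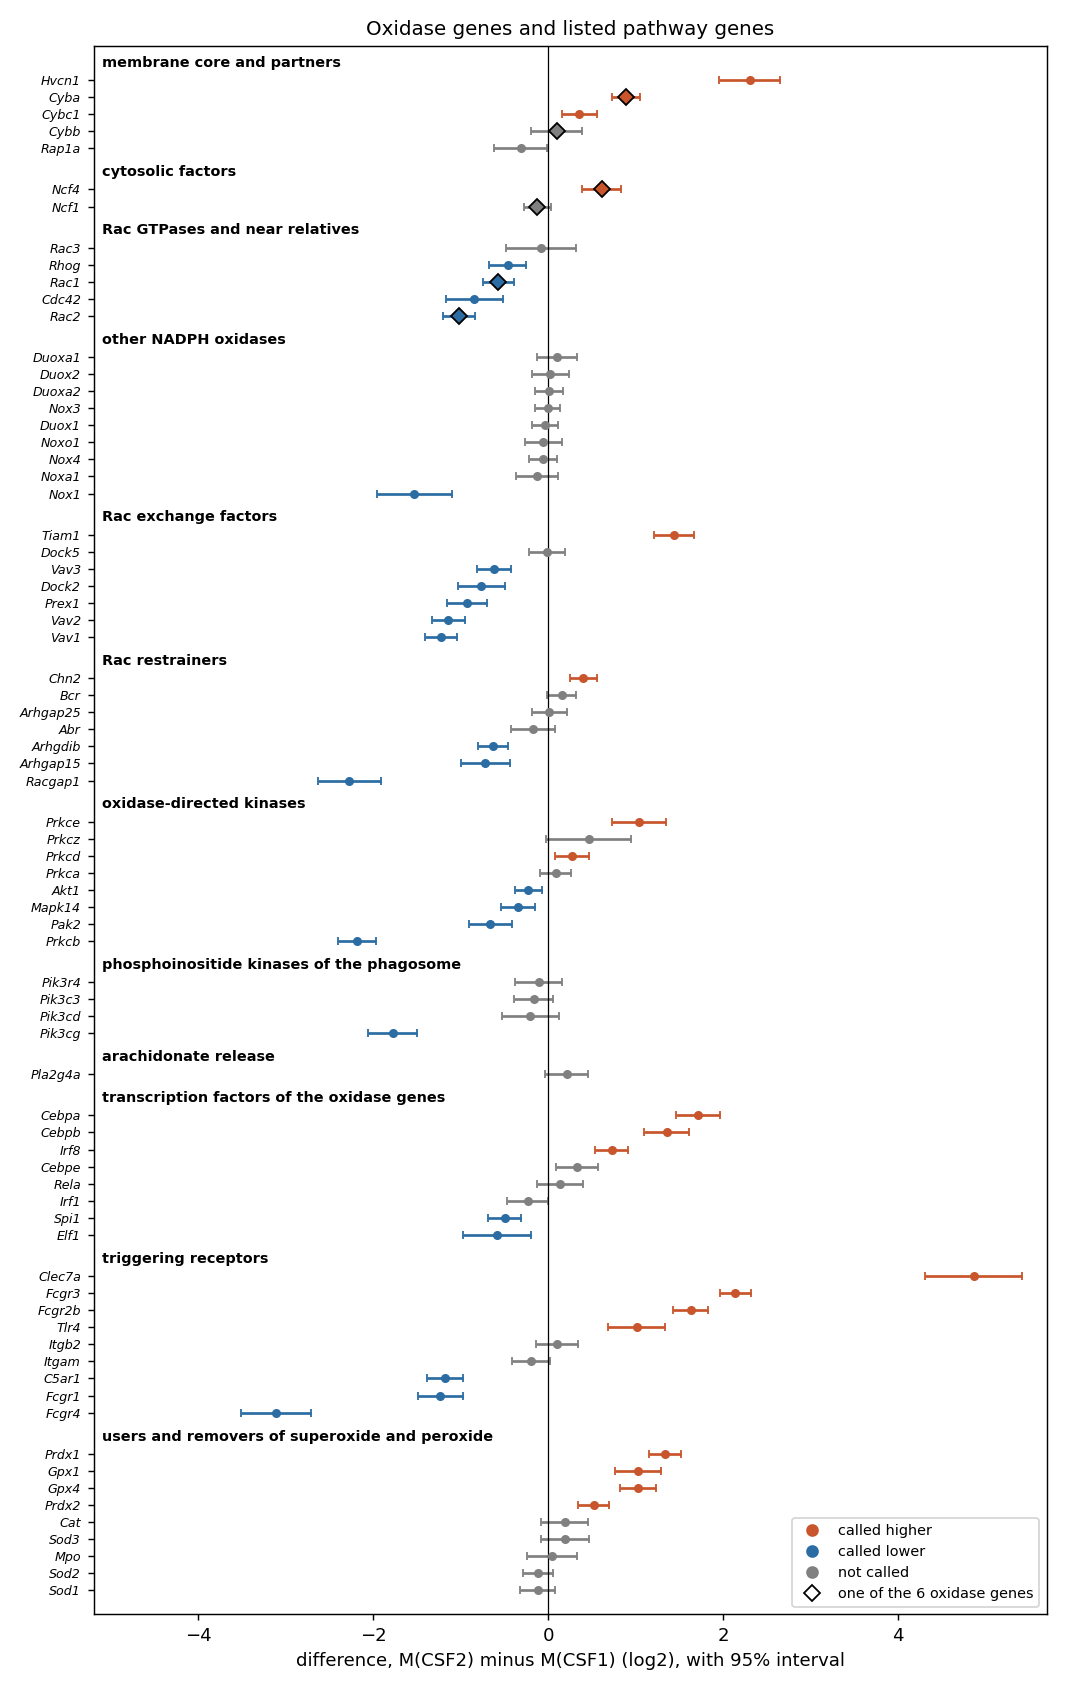
Difference, M(CSF2) minus M(CSF1) (log2, horizontal axis), with its 95% interval for the 6 oxidase genes (outlined diamonds) and 68 listed pathway genes (circles), grouped by role; colour gives the limma call. Rac GTPases and their exchange factors lie mostly to the left, and peroxide-removing genes lie to the right or near 0.

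Transcription factors known to act on oxidase genes did not share a direction. Of 8, 3 were higher and 2 lower, where 11.9% and 15.6% of all genes were. Spi1, which encodes PU.1, fell from 10.81 ± 0.11 to 10.31 ± 0.06 (SD, n = 3 arrays each), a difference of -0.50 (limma adjusted p = 0.00244). Irf8, a partner of PU.1 at composite sites of the kind found in the Cybb window, rose by 0.72 (limma adjusted p = 0.000327). Cebpa and Cebpb rose by 1.72 and 1.35. Elf1 gave -0.59 (limma adjusted p = 0.0342), and its call was lost without M(CSF1) replicate 1 (-0.54, adjusted p = 0.141) or 2 (-0.55, 0.138) and without M(CSF2) replicate 1 (-0.58, 0.121) or 2 (-0.43, 0.0928). Cybb, which holds the composite and 3 IRF repeats, and Ncf1, which holds 1 repeat, were the members that were not called, and Cyba, with no match, rose. With 3 windows this is a description of these genes.

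Receptors tied to the burst, 1 of them inhibitory, were called in either direction, 4 of 9 higher and 3 lower. Among all genes 11.9% were higher and 15.6% lower. The beta-glucan receptor Clec7a (4.87), the IgG receptor Fcgr3 (2.14) and the inhibitory IgG receptor Fcgr2b (1.63) rose most. The IgG receptors Fcgr4 (-3.11) and Fcgr1 (-1.23) and the complement receptor C5ar1 (-1.18) fell. How far the probes of the IgG receptors, Fcgr3 and Fcgr2b among them, share signal was not tested. The integrin chains Itgam (-0.19) and Itgb2 (0.10) were not called. Among 9 genes whose products use or remove superoxide and peroxide, 4 were higher and none was lower, beside the same shares of all genes. Prdx1 (1.34), Gpx1 (1.03) and Gpx4 (1.02), which reduce peroxides, rose most, while Cat (0.19) and the superoxide dismutases Sod1 (-0.12) and Sod2 (-0.12) were not called. Mpo, which turns peroxide into hypochlorous acid in neutrophils, was dim at 3.72 and 3.77 (limma adjusted p = 0.829). Adjusted p of the called genes named in this paragraph was at most 0.000321, for Gpx1.

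Neutrophils also carry much oxidase, so their 15 listed markers were read beside the members. The summed signal of the list, on the linear scale, was 2694 to 3372 in M(CSF1) and 7751 to 8619 in M(CSF2). Probes have no common scale, so this sum is no measure of neutrophil RNA, and its brightest members in M(CSF2) were Lcn2 (11.17 to 12.43 on the log2 scale) and Mmp8 (6.60 to 11.04). Within the list 4 markers were higher (Mmp8, S100a8, Lcn2 and Ltf), 1 was lower (Csf3r) and 10 were not called. Among all genes 27.5% were called. Ly6g, Cxcr2, Retnlg, Ngp, Ctsg and Ltf lay at or below the olfactory receptor level on all 6 arrays, so Ltf was called at a level of genes that are not expressed. Of the 5 dendritic cell markers Ccr7 rose and the other 4 were not called. In the mast cell and basophil list 4 of 7 were higher: Hdc (4.43), Gata2 (2.52) and Kit (1.32) rose, all above the olfactory receptor level, and the protease Mcpt8 was called at or below that level. The proteases Cpa3 and Mcpt4 also lay at or below it on all 6 arrays and were not called. Tpsb2, also a protease, lay a little above it on all 6 arrays and was not called (-0.08). Of all genes 11.9% were higher and 15.6% lower. In the eosinophil list 1 of 6 was lower, in the B cell list 1 of 4, and none of 5 T and NK cell markers was called (limma). The part of other cell types in the differences of Cyba, Ncf4, Rac1 and Rac2 was not tested.

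Gene order on the chromosome places Ncf4 and Rac2 close together, with 10 protein-coding genes between them in the RefSeq table of GRCm38.p6. Of these 10, all were measured, 5 were higher, none was lower and 5 were not called (limma), where 11.9% of all genes were higher and 15.6% lower. Next to Ncf4 stand Csf2rb2 and then Csf2rb. Of these, Csf2rb encodes the shared signalling chain of the CSF2 receptor, and Csf2rb2 encodes its close paralog. Csf2rb2 rose by 4.21 (SE 0.17) and Csf2rb by 3.62 (SE 0.09, limma adjusted p = 4.0e-07), although near-identical copies may share signal on an array. Beyond Rac2 stands Cyth4, an exchange factor for ARF GTPases, which fell by 0.98 (SE 0.08, limma adjusted p = 5.5e-05), close to the -1.02 of Rac2. On the other side of Rac2, C1qtnf6 went the other way and rose by 0.83 (limma adjusted p = 0.00617). Not called were Pvalb (0.03) and Ift27 (-0.04) on the far side of Ncf4, Sstr3 (0.10) next to Rac2, and Elfn2 (0.12) beyond Cyth4. None of the 4 nearest neighbours of Cyba was called either (limma). Of the 4 nearest to Rac1, Daglb (-0.91) and Cyth3 (-0.56) were lower, Fam220a (-0.05) was not called, and Kdelr2 was not measured. Around Ncf1, Rcc1l (-0.54) and Gtf2i (-0.65) were lower, and Gtf2ird2 (0.18) and Gtf2ird1 (0.14) were not called. Near Cybb only Dynlt3 was measured, and it was lower (-0.73). These neighbours were looked up after the values of the members were known.

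Genes whose profile was most like that of each member were found by the root mean square distance over the 6 arrays, after centring each gene on its own mean. For Rac2 the 3 nearest of all genes were Pik3ap1 (distance 0.025 log2 units), Cyth4 (0.0375) and Lpin2 (0.043). For Rac1 they were Add3, Nup93 and Srsf9, at 0.036 to 0.056. For Cyba they were Cst3, Ccl3 and Coq3, at 0.026 to 0.046, and for Ncf4 they were Dhrs11, Hcfc1r1 and Mpdu1, at 0.024 to 0.042. Ncf1 was nearest to Nfe2l1, Dazap1 and Siglec15, at 0.017 to 0.023. The nearest to Cybb were Slc17a4, Shpk and Olfr1535, at 0.038 to 0.049, of which Slc17a4 and Olfr1535 had group means of 2.84 to 2.98, at the olfactory receptor level, where the order of values carries little. Among the members themselves, the closest pair was Cyba with Ncf4, at 0.157, and the farthest was Cyba with Rac2, at 0.959. All these distances mix the step between groups with the spread inside them.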

How the data were processed

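The deposited table holds 1 log2 value per probe set and array, for 28941 probe sets on 6 arrays, as the authors gave it. Base 2 was inferred from the range of the values, 1.48 to 13.27. MAS5 is the only tool in the submitters' processing notes. It usually gives linear signals, so whether and how it made these log-scale values stays unknown, and with it the exact meaning of a signal or fold. Background correction, normalization, summarisation and genome build are not stated in any source used here. No detection calls come with the values. Probe sets naming exactly 1 gene (21789) were kept, symbols were updated by Entrez identifier through RefSeq, and the brightest probe set stood for a gene, which left 19938 genes without a filter. Differences came from limma 3.58.1 under R 4.3.3 (2-sided, with Benjamini-Hochberg adjustment over all genes). The procedure was also run on simulated independent values with few changed genes. These data have many called genes, so that run does not give the share of false calls here. Folds are ratios of deposited signal, which may be smaller than those of transcripts. The number of arrays limits the precision.

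The members, lists, floor and motifs were chosen with earlier results of these data known. Named were all members, up to 3 called genes per direction and list, genes a result turns on, and the 3 nearest profiles per member. The alternatives changed the scaling (quantile, median), the filter on dim genes, the choice of probe set (their mean, or each by itself) and the variance model (trend, robust, unmoderated), added the replicate number as a term, or dropped each array in turn.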

Additional observations from a re-analysis of the deposited data

How the results depend on the processing

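Of the 16 alternatives, none changed the call of any member, and 1 changed a sign: Cybb, never called, went to -0.012 without M(CSF2) replicate 1, and the fits with 1 array left out ran from -0.012 to 0.23. The count of genes called ran from 3769 with ordinary least squares to 7139 with every probe set tested alone, against 5488 as reported. Beyond the members, 33 of the 38 called pathway genes kept call and direction in every alternative in which they were tested, and Akt1, Cybc1, Elf1, Mapk14 and Prkcd did not. Akt1 lost its call in 10 of 16 alternatives, quantile normalization among them (-0.15, adjusted p = 0.131). With ordinary least squares Mapk14 and Prkcd had adjusted p = 0.0608 and 0.104, Cybc1 0.0632 and Elf1 0.163. Same-numbered arrays of the groups did not deviate together (correlations of deviations 0.004, -0.044 and -0.253), so the numbers were not taken as pairs. With the replicate block 5072 genes were called, Cyba kept adjusted p = 0.000453, and no member's call changed, but Akt1 (0.127), Mapk14 (0.0541) and Prkcd (0.0954) passed the threshold no longer.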
